A study of Mus musculus with 6 samples.

Results

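NRF2 binding sites were compared between GCN2 knockout (KO) mouse embryonic fibroblasts deprived of leucine and the same cells in complete medium. The data were 2 peak lists from chromatin immunoprecipitation and sequencing (ChIP-seq) with an NRF2 antibody. The list from the GCN2-/- cells after 24 h in DMEM without leucine held 4600 peaks, and the list from the GCN2-/- cells after 24 h in complete DMEM held 3141. Together these were 7741 of the 16057 peaks in the 4 NRF2 lists of the study. Peaks were placed in 3 sets by whether their windows overlapped by at least 1 bp. Shared peaks were in both KO lists, gained peaks were in the list without leucine and not in the complete-medium list, and missing peaks were in the complete-medium list and not in the list without leucine. "Gained" and "missing" here name the list that held a window and nothing else.

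NRF2, encoded by Nfe2l2, is a transcription factor that pairs with small Maf proteins and binds antioxidant response elements (AREs) near genes for glutathione synthesis, thioredoxin reduction, quinone detoxification and iron storage. KEAP1 marks it for degradation until oxidants or electrophiles block KEAP1. GCN2, encoded by Eif2ak4, is a kinase that senses uncharged tRNA when an amino acid such as leucine runs short, and its signal raises translation of the transcription factor ATF4, which induces amino acid transport and synthesis genes. In cells without GCN2 this branch of the response to leucine shortage is lost, so the comparison addresses where NRF2 was bound under leucine shortage when the sensor was lacking.

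All cells were of the 129S6/SvEvTac strain. The wild-type (WT) lists, used here only to look up sites, held 5980 peaks without leucine and 2336 in complete medium. Each condition was 1 library, so no difference between lists could be set against a replicate spread and no test was possible. Both KO lists were called against the same KO input from complete medium, per the file headers, so they share that control. How the KO cells were derived, whether they were a single clone and how many reads stood behind each list are not given in the sources used here. A deeper library passes a fixed threshold at more sites, and an absent peak is a site below the authors' threshold. NRF2 peaks measure neither Eif2ak4 disruption nor fibroblast markers, so neither label could be checked. No KO peak was assigned to Eif2ak4.

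The sequence of promoters that a peak overlapped could be read. RefSeq promoter windows (GRCm38.p6, the assembly also called mm10, from 250 bases before to 50 after the transcription start site, TSS) were searched on both strands for TGACNNNGC, the core of an ARE. Peak and promoter window shared a median of 126 bp for gained (lowest 6), 191 bp for shared (lowest 70) and 180 bp for missing peaks (lowest 1), so a motif can lie outside the peak, and the counts are of promoter windows. The core was in 11 of 53 windows that gained peaks overlapped (20.8%, 95% interval 10.8 to 34.1), in 10 of 18 for shared peaks (55.6%, 30.8 to 78.5) and in 10 of 42 for missing peaks (23.8%, 12.1 to 39.5), against 12.4% of all 32851 promoter windows. The fuller form TGACTCAGC, which also contains the AP-1 motif TGACTCA, was in 1 of 53 gained, 5 of 18 shared and 2 of 42 missing windows, and in 0.454% of all promoter windows. The C/EBP-ATF motif TGATGCAA was in 0 of 53 gained, 0 of 18 shared and 1 of 42 missing windows (0.895% of all), and the E-box CACGTG in 2 gained, 1 shared and 4 missing windows (7.15% of all). The AP-1 motif itself was in 3 of the gained, 6 of the shared and 9 of the missing windows, and in 5.20% of all. The interval of the shared windows for the ARE core overlapped that of the gained and that of the missing windows.

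For 6 promoters, the bases upstream of the TSS are printed 5′ to 3′ on the gene's strand, with matches to TGACNNNGC, TGACTCA or TGAGNNNGC on either strand in capitals. TGAGNNNGC, a form of the core with TGAG in place of TGAC, was added after the windows were seen, and was in 15 of 53 gained, 4 of 18 shared and 6 of 42 missing windows and in 17.6% of all promoter windows. Prdx1 (chr4:116685349-116685598, plus strand), Txnrd1 (chr10:82858956-82859205, plus strand) and Aox1 (chr1:58029719-58029968, plus strand) were overlapped by shared peaks. Srsf2 (chr11:116853095-116853344, minus strand) was overlapped by a gained peak. Srxn1 (chr2:152105274-152105523, plus strand) and Eef1a1 (chr9:78481725-78481974, minus strand) were overlapped by missing peaks. Prdx1, Txnrd1, Aox1, Srxn1 and Eef1a1 are shown because their peaks are described below, and Srsf2, picked after its sequence was seen, as a gained window that holds the core.
Prdx1: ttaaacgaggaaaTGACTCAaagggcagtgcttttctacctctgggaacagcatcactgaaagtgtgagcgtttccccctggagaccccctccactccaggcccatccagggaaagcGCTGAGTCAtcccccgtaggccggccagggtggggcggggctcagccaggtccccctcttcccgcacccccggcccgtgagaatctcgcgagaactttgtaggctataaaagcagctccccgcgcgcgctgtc
Txnrd1: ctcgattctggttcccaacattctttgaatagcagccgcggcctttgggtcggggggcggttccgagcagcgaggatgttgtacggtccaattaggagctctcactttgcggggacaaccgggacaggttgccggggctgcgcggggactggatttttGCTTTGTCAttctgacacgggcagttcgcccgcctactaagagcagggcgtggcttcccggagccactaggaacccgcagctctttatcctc
Aox1: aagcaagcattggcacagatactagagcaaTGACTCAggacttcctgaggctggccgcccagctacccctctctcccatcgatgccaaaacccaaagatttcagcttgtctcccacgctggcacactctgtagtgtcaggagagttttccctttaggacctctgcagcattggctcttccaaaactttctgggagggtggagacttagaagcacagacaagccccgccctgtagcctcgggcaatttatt
Srsf2: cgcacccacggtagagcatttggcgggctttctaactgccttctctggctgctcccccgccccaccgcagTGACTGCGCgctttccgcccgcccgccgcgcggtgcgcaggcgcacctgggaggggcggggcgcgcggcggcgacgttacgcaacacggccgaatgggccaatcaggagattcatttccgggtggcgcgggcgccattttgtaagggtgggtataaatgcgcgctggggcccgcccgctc
Srxn1: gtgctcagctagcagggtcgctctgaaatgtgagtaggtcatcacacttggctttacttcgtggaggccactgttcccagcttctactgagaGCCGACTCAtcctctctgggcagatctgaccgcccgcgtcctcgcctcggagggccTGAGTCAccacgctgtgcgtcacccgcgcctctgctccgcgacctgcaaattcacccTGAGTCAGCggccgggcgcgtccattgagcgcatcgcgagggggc
Eef1a1: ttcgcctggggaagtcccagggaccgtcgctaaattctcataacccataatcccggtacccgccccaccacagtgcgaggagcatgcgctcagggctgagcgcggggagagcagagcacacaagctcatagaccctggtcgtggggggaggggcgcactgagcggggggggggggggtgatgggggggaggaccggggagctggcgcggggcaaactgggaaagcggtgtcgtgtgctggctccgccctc
Prdx1 holds the fuller ARE in its reverse orientation and another AP-1 match farther upstream. Txnrd1 holds 1 ARE core in reverse orientation, and Aox1 an AP-1 match without the core. Srsf2, which encodes a splicing factor, holds 1 ARE core, although its peak was in the list without leucine alone. Srxn1 holds matches to the G form and to AP-1 and none to TGACNNNGC in these bases. Eef1a1 holds none of the forms marked in capitals in these bases, which cover only a part of its peak. The rest of that peak is not printed.

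The lists coincided mostly at their strongest sites. There were 429 shared sites, which were 9.33% of the peaks without leucine (8.50 to 10.2) and 13.7% of the peaks in complete medium (12.5 to 14.9). The gained set held 4171 peaks, 90.7% of the list without leucine, and the missing set held 2712, 86.3% of the complete-medium list. Counted by distinct sites, 57.0% of 7312 were gained, 5.87% shared and 37.1% missing. Of the 100 top-ranked peaks, 94 were shared in the list without leucine and 94 in the complete-medium list. Among peaks with a deposited score of 200 or more, 79 of 81 without leucine (97.5%) and 60 of 63 in complete medium (95.2%) were shared. At scores from 20 to 29 the shares were 1.82% of 1372 peaks without leucine and 4.21% of 1022 in complete medium. The median score was 30 for gained peaks, 87 for shared peaks in the list without leucine and 76 for the same sites in complete medium, and 34 for missing peaks. With the longer list limited to its 3089 highest-scoring peaks, so that lengths were close to equal, 396 sites were shared, 12.8% of the peaks without leucine and 12.6% of those in complete medium.

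**Figure D1:**
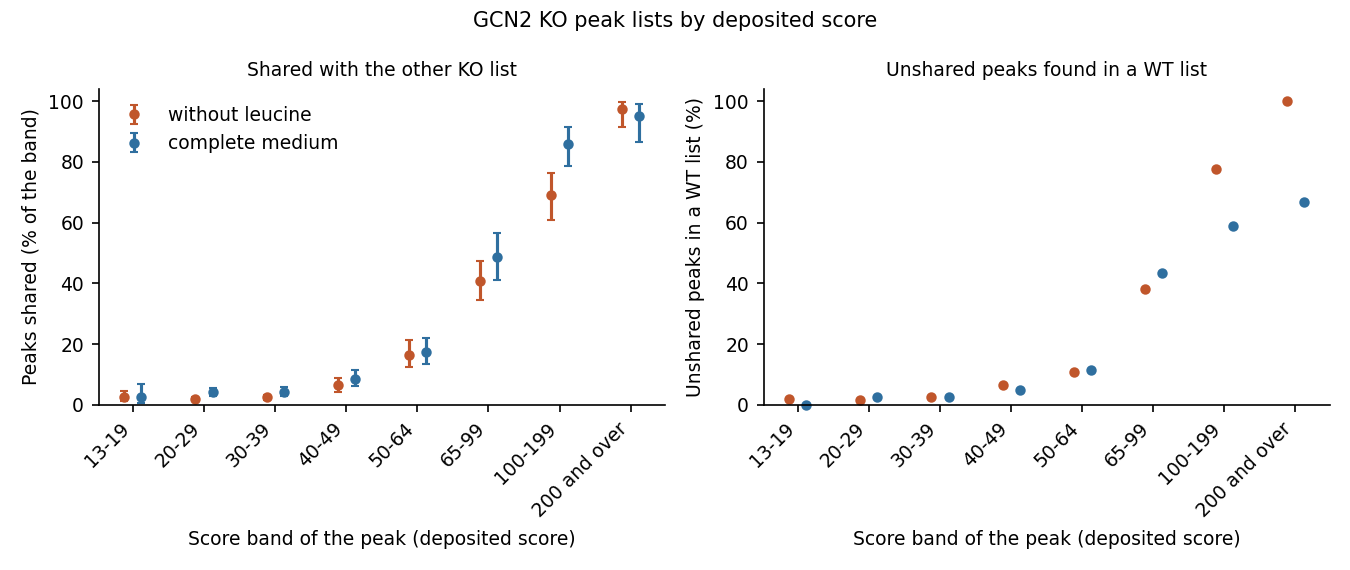
Share of GCN2 KO peaks found in the other KO list (left) and share of the remaining, unshared peaks found in a WT list (right), in %, by band of the deposited peak score, for the list without leucine (orange) and in complete medium (blue). Bars in the left panel are exact 95% binomial intervals that cover counting error only, the right panel has none, and the highest band was shared for 97.5% of peaks without leucine and 95.2% in complete medium, and the lowest for 2.67% without leucine and 2.76% in complete medium.

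Shared windows lay almost on top of each other. The median distance between the centres of a pair was 25 bp, 315 of 429 pairs (73.4%) were within 50 bp, and the largest distance was 274 bp. Windows that only just failed to overlap were few, with 19 gained peaks (0.456%) and 19 missing peaks (0.701%) centred within 600 bp of a peak in the other list. The nearest peak of the other list was at a median distance of 156035 bp for gained peaks and 98162 bp for missing peaks.

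Sites shared by the KO lists were mostly WT sites as well, whereas gained and missing peaks seldom were. Of the shared sites, 332 of 429 (77.4%, 73.1 to 81.3) overlapped a peak of either WT list and 254 (59.2%) overlapped peaks of both. Of the gained peaks 216 of 4171 (5.18%, 4.53 to 5.90) overlapped a WT peak, and of the missing peaks 150 of 2712 (5.53%, 4.70 to 6.46). The gained set overlapped the peaks that WT cells had only without leucine at 98 sites, 2.35% of the KO gained peaks and 1.78% of the 5444 WT peaks of that kind. It overlapped the 1801 peaks that WT cells had only in complete medium at 44 sites, 1.05% of the KO gained peaks and 2.44% of those WT peaks. The strongest gained peaks stood apart from the rest of their set. Of the 47 gained peaks that scored 100 or more, 37 overlapped a WT peak (78.7%, 64.3 to 89.3). For 12 of these 37 the overlap was with the WT list without leucine alone, for 7 with the WT complete-medium list alone and for 18 with both. Of the 20 missing peaks that scored as high, 12 overlapped a WT peak (60.0%, 36.1 to 80.9), 9 of them in both WT lists.

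The shared sites near genes named here were picked for their mean rank over both KO lists, so a high rank in each is a matter of that choice. The first-ranked peak without leucine, in intron 2 of 9 of Rxra, which encodes a retinoid receptor, ranked 2 in complete medium and lay 29870 bp from the TSS. Ftl1, the ferritin light chain gene, ranked 5 of 4600 without leucine and 1 of 3141 in complete medium, with a window 1092 bp upstream of its TSS (chr7:45460828-45461128, annotated to a transcript end). Creld1 ranked 2 without leucine and 3 in complete medium, with an intronic window annotated to a LINE element. The site near Mir3076 ranked 4 in both lists and lay in intron 4 of 13 of a protein-coding transcript. Brd2, a bromodomain gene, ranked 9 in both. Ccl1, a chemokine gene, ranked 13 without leucine and 8 in complete medium, and Gstp2, a glutathione transferase gene, 15 without leucine and 11 in complete medium. Hmox1, whose product degrades heme, had a pair of upstream sites. The farther one (chr8:75083825-75084125) ranked 14 in both KO lists, and the nearer one (chr8:75089574-75089874) ranked 20 without leucine and 64 in complete medium. These ranks describe order within a list and not an amount of binding.

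Across the 396 sites shared at near-equal lengths, the ranks in the 2 lists had a Spearman rho of 0.66. The points share the score threshold and the KO input, and many scores are tied. Without leucine 211 of these sites ranked higher, in complete medium 179, and 6 ranked alike. The limit of 3089 peaks was applied to the list without leucine alone. It left out shared sites that ranked low in that list, whatever their rank in complete medium. That tilts the counts towards the list without leucine, so no direction can be read from them. The sites that ranked farthest up in the list without leucine, relative to complete medium, were near 4930452A19Rik (rank 52 without leucine, 3109 in complete medium), Jun, at -110373 bp from the TSS of this AP-1 gene (134 without leucine, 2540 in complete medium), Mir1945 (486 without, 2671 in complete medium) and Ephx1 (288 without, 2470 in complete medium). Among the 396 sites, those farthest down without leucine were near 1810013L24Rik (3026 without leucine, 235 in complete medium) and Adam23 (3026 without, 290 in complete medium). Tiam1 (2742 without, 945 in complete medium) and Ndufaf6 (1927 without, 146 in complete medium) were also among them. A site near Pisd-ps3, on an unplaced sequence, was among the largest shifts of the 396 in each direction. Outside the 396, wider shifts occurred. A shared site near Thy1, at -55391 bp from the TSS, ranked 3925 without leucine and 250 in complete medium. The Mir1945 site was annotated to a B3A element in both lists, and the Jun site to one in the list without leucine alone. Of the shared sites, 97 were in neither WT list. The best-ranked of these lay near Gm13710 (271 without leucine, 35 in complete medium), 1700017G19Rik (128 without, 143 in complete medium) and Strn3 (165 without, 162 in complete medium).

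**Figure D2:**
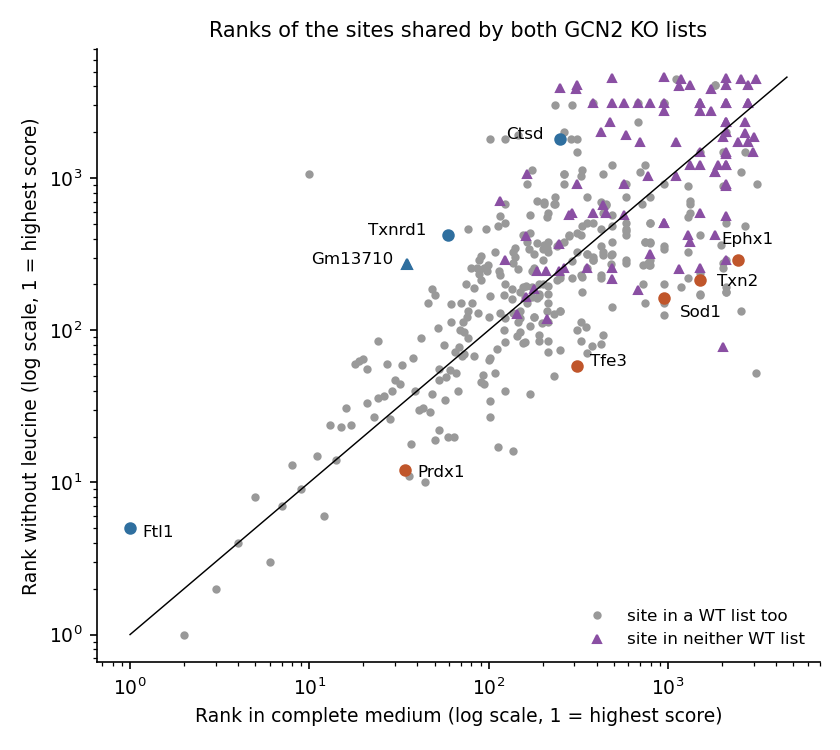
Rank of each of the 429 shared sites without leucine (vertical, log scale) against its rank in complete medium (horizontal, log scale), where 1 is the highest score and the line marks equal ranks. Triangles mark the 97 sites in neither WT list, and coloured, named points lie below the line where the site ranked higher without leucine (Prdx1 at 12 without leucine and 34 in complete medium) and above it where it ranked lower (Txnrd1 at 422 without leucine and 59 in complete medium).

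Genes of the antioxidant, heme and iron programme carried peaks in both media, and mostly the same ones. Of 144 genes in 8 lists by role, 31 carried a peak at most 10 kb from the TSS without leucine (21.5%) and 29 in complete medium (20.1%), against 4.03% of 21896 protein-coding genes without leucine and 3.03% in complete medium. Here and for the groups by role below, a peak of a gene means one within 10 kb, unless another distance is given. In both lists were 23 of the 144 (16.0%, against 0.776% of protein-coding genes), and all 23 had at least 1 shared site. Only without leucine were 8 (5.56%, against 3.26%), and only in complete medium 6 (4.17%, against 2.25%). These shares describe single libraries and lists of well known targets of NRF2. The lists were chosen with earlier results of these data known, so the shares are no independent enrichment. The gene's best peak was in the upper 50% of its list for 27 of 31 genes without leucine and for 25 of 29 in complete medium. In the WT lists, 47 of the 144 had a peak without leucine and 39 in complete medium, against 6.17% of protein-coding genes without leucine and 2.28% in complete medium.

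In glutathione supply, Gclc, the catalytic subunit of the first step of glutathione synthesis, was the single gene of 12 with a KO peak, ranking 23 without leucine and 15 in complete medium. Gclm, its regulatory partner, and the cystine transporter gene Slc7a11 had no KO peak that close. Among 21 glutathione transferase genes, which join glutathione to electrophiles, 5 had a peak without leucine and 4 in complete medium. Gstm6 ranked 29 without leucine and 47 in complete medium, Gstm1 59 without leucine and 33 in complete medium, and Mgst2 503 without leucine and 581 in complete medium. Gstm3 had a peak without leucine alone, at rank 312. The Gstm1, Gstm3 and Gstm6 windows all lay in intron 7 of 7 of neighbouring, similar genes, so reads of one copy may have been placed at another.

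The thioredoxin and peroxide group was the most fully covered, with 6 of 16 genes without leucine and 7 in complete medium. Prdx1, a peroxiredoxin that reduces peroxides, ranked 12 without leucine and 34 in complete medium at its promoter. Txn1, the cytosolic thioredoxin, ranked 33 without leucine and 21 in complete medium, and Prdx6 27 without leucine and 23 in complete medium. The ranks of 3 more genes differed widely. Txnrd1, the reductase that recharges thioredoxin, ranked 422 without leucine and 59 in complete medium. Sod1, the cytosolic superoxide dismutase, ranked 162 without leucine and 945 in complete medium, and Txn2, the mitochondrial thioredoxin, 215 without leucine and 1509 in complete medium. Srxn1, the sulfiredoxin that repairs overoxidised peroxiredoxins, had its promoter peak in complete medium alone, at rank 774. The same promoter carried a peak in both WT lists, at rank 261 without leucine and 314 in complete medium.

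Of 20 quinone and carbonyl genes, 5 had a peak without leucine and 4 in complete medium. Nqo1, the quinone reductase, ranked 670 without leucine and 452 in complete medium at its promoter (chr8:107403515-107403815). Aox1, an aldehyde oxidase, ranked 422 without leucine and 581 in complete medium, and Esd, an esterase, 567 without leucine and 170 in complete medium. Ephx1, the microsomal epoxide hydrolase, ranked 288 without leucine and 2470 in complete medium. Cbr3, a carbonyl reductase, had a promoter peak without leucine alone, at rank 1129. Me1, which makes NADPH in the cytosol, was the single gene of 9 counted in its group, at rank 127 without leucine and 146 in complete medium. Each peak counted only for the gene of its nearest TSS. A window inside a gene of the group but nearer another TSS is therefore not in this count.

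Heme and iron genes numbered 8 of 40 without leucine and 7 in complete medium, with Fech, Fth1, Ftl1, Hmox1 and Slc48a1 in both. Fth1, the ferritin heavy chain, ranked 63 without leucine and 19 in complete medium. Slc48a1, a heme transporter, ranked 40 without leucine and 29 in complete medium, and Fech, the enzyme that completes heme, 114 without leucine and 214 in complete medium. Without leucine alone there were peaks near Abcb6, a porphyrin transporter (rank 1222), Ppox, of the heme synthesis pathway (3090), and Steap3, an iron reductase (3925). Bach1, the heme-sensing repressor that competes with NRF2 for its sites, had a peak in complete medium alone (1290). Slc40a1, the iron exporter gene, and Spic, a factor of iron-recycling macrophages, had none in either KO list. Among 9 efflux pump genes, Abcc4 had a peak without leucine alone (591) and Abcc1 in complete medium alone (581). Just outside 10 kb, at -10519 bp, Abcc1 had a shared site that ranked 288 without leucine and 383 in complete medium.

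Of 18 genes that regulate NRF2 or pair with it, 4 had a peak without leucine and 5 in complete medium. Mafg, a small Maf partner, had 2 shared sites in intron 1 of 2. The one whose window without leucine was 3332 bp from the TSS ranked 187 without leucine and 48 in complete medium, and the one at 479 bp ranked 560 without leucine and 2096 in complete medium. Sqstm1, the autophagy receptor that sequesters KEAP1, also had 2. The upstream site ranked 72 without leucine and 214 in complete medium, and the promoter site 751 without leucine and 581 in complete medium. Gsk3b (2943) and Nfe2l3, an NRF2 relative (3090), had peaks without leucine alone. Keap1 (2096), Trim16 (2586) and Bach1 had peaks in complete medium alone. Nfe2l2 itself was without a peak at that distance in both KO lists. Of the 8 genes of all these groups found without leucine alone, the window overlapped a WT peak for 4, namely Abcb6, Abcc4, Cbr3 and Gstm3. Of the 6 found in complete medium alone it did for 5. The genes found in 1 medium alone ranked between 312 and 3925.

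**Figure D3:**
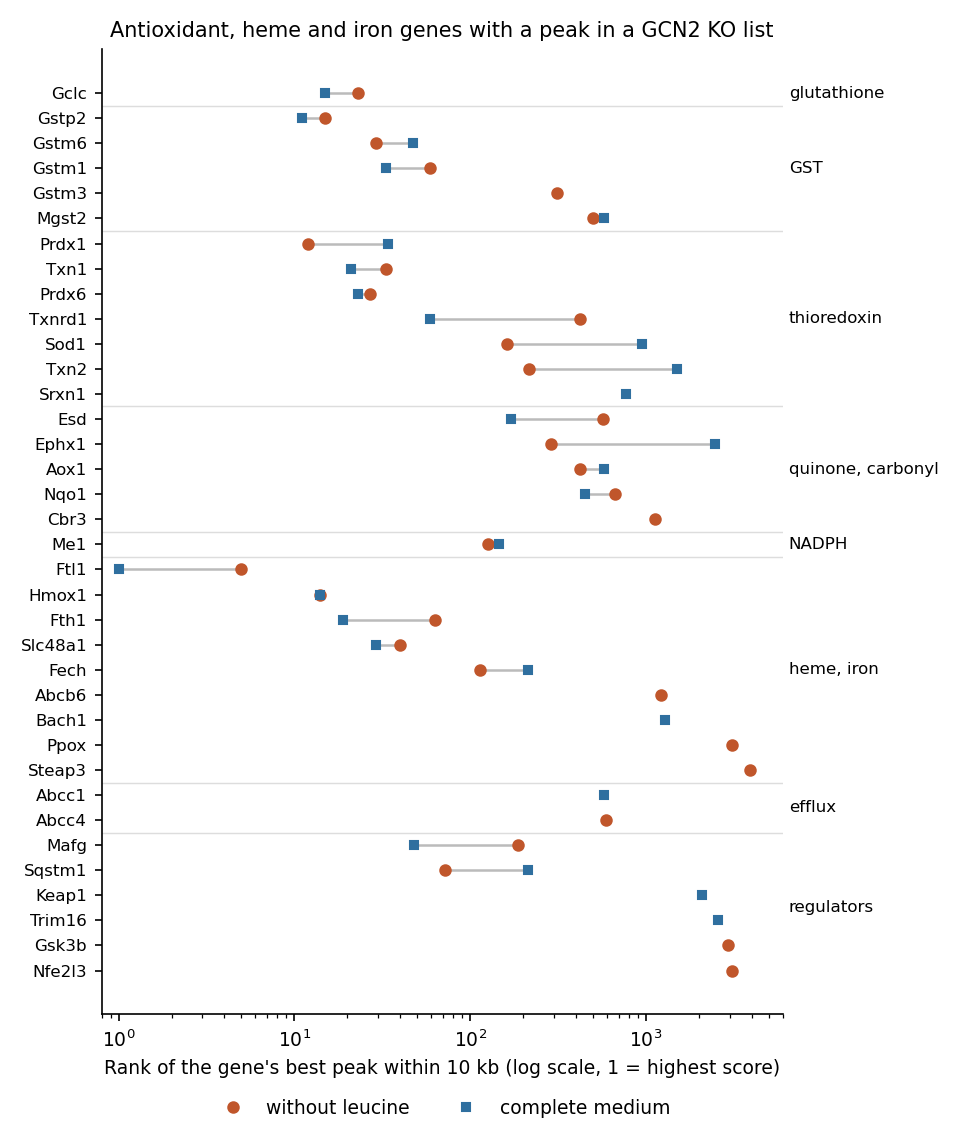
Rank of the best peak within 10 kb of each antioxidant, heme or iron gene without leucine (orange circles) and in complete medium (blue squares), on a log scale where 1 is the highest score, grouped by role. Genes with a symbol in 1 colour had a peak in that list alone, 1 such gene is not drawn, and grey lines join the ranks of the 23 genes with peaks in both lists.

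The highest-scoring gained peaks near genes were ranked from 106 downward. Zfp36, which encodes an RNA-binding protein that destabilises cytokine mRNA, ranked 106 (chr7:28381419-28381719, 2341 bp upstream of the TSS), and its window overlapped peaks of both WT lists. Dynlt1b (142), a dynein light chain gene, overlapped a peak of the WT list without leucine alone. LOC100503676 (143) and Cdc42bpg (150) overlapped a peak of the WT complete-medium list alone, although they were in the KO list without leucine. Ssc4d (152) and 4930568G15Rik (170) overlapped both WT lists. Wrb (201) and AI314180 (225) were the 2 of the 10 best gained sites near a gene that were in neither WT list. Farther from a TSS, the best gained peaks were assigned to Arfgap2 (62), Polr2m (76), Dkk2 (92), Serpina4-ps1 (93) and Tbxas1 (93), and each of the 5 overlapped a WT peak.

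The best missing peaks included the promoter of a gene that most cells express strongly. A promoter window of Eef1a1, which encodes translation elongation factor 1A (chr9:78481515-78481815), ranked 40 of 3141 in complete medium and overlapped peaks of both WT lists. Socs3, an inhibitor of cytokine signalling, ranked 83 with a window in exon 2 of 2, and Pkm, the pyruvate kinase gene, 190, and both overlapped peaks of both WT lists too. Windows near Mir3082 (31) and at Stub1 (150), which encodes a ubiquitin ligase, lay next to each other on chromosome 17 and were in no WT list. Mir155 (190) and A530013C23Rik (204) overlapped both WT lists. Farther from a TSS the best missing peaks were assigned to Gemin6 (44), Vegfa, at -37932 bp (102), Mgst1 (108), Tmem117 (116) and Gm16973 (124), and only the Mgst1 window was in neither WT list. Sfi1 was named in both sets, at rank 111 without leucine and 81 in complete medium, with adjacent windows whose centres were 313 bp apart. Rn45s, a ribosomal RNA gene present in many copies, was also named in both, at rank 149 without leucine and 116 in complete medium.

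The 3 sets differed in where they lay. Exons held 5.15% of gained peaks (4.50 to 5.87), 0.466% of shared peaks and 6.05% of missing peaks. Put the other way, 2 of 217 exon peaks without leucine (0.922%) and 3 of 167 in complete medium (1.80%) were shared, against 9.33% of all peaks without leucine and 13.7% in complete medium. No exon peak was among the 226 peaks without leucine that scored 100 or more, and 4 were among the 184 in complete medium. Promoter-TSS windows made 1.39% of gained, 3.03% of shared and 1.99% of missing peaks, and 13 of 71 promoter peaks without leucine (18.3%) and 13 of 67 in complete medium (19.4%) were shared. Within 10 kb of a TSS lay 22.5% of gained, 32.4% of shared and 24.6% of missing peaks. The median distance to the TSS was 32630 bp for gained, 22566 bp for shared and 29650 bp for missing peaks.

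Intergenic windows made 49.2% of gained peaks (47.6 to 50.7), 50.6% of shared and 43.7% of missing peaks (41.8 to 45.5). Introns held 40.6% of gained, 42.4% of shared and 44.7% of missing peaks. Median GC content was 51.8% in gained, 50.2% in shared and 52.2% in missing windows. Between the gained and the missing set, the intervals did not overlap for the intergenic, intron, LINE and any-repeat shares. They cover counting error only and leave out differences between single libraries, so this is no test of a difference between media. LINE elements covered 7.86% of gained peaks (7.06 to 8.72), 3.50% of shared peaks (1.97 to 5.70) and 5.42% of missing peaks (4.60 to 6.34).

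**Figure D4:**
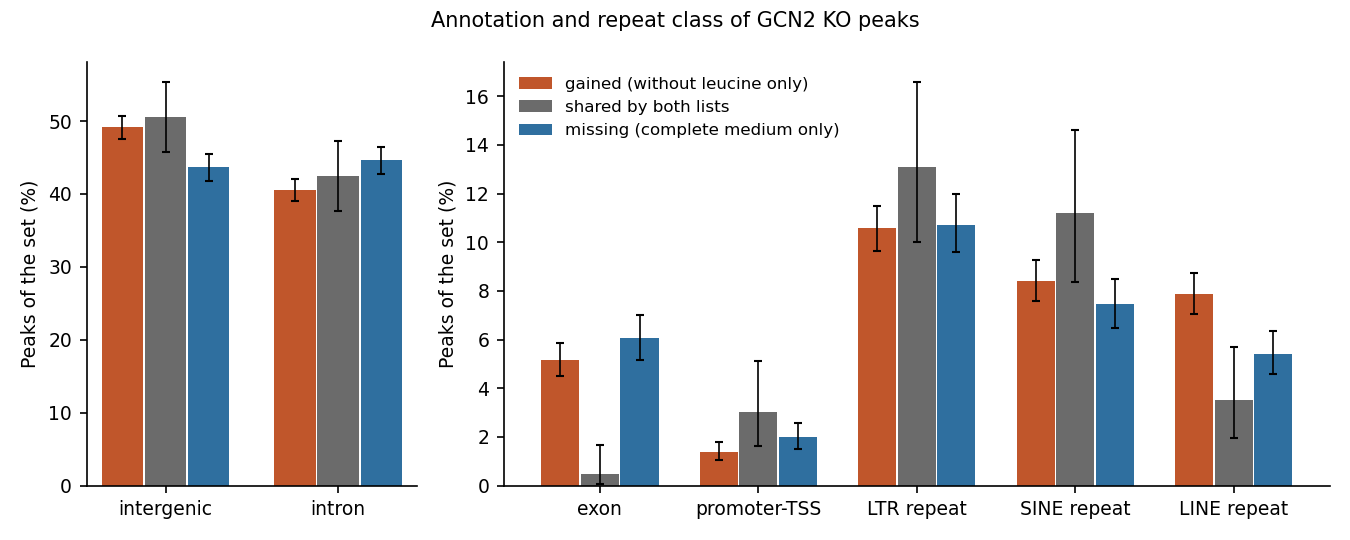
Share of gained, shared and missing GCN2 KO peaks, in % of the set, in 4 annotation classes and 3 repeat classes. Error bars are exact 95% binomial intervals that cover counting error only, and the exon bar of the shared set (0.466%) stands far under those of the gained (5.15%) and missing (6.05%) sets.

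The share of peaks found in both media differed from one repeat element to another. Windows on any repeat made 30.1% of gained, 28.7% of shared and 26.6% of missing peaks. On RMER19C, a long terminal repeat element, 8 of 11 peaks without leucine (72.7%, 39.0 to 94.0) and 8 of 10 in complete medium (80.0%, 44.4 to 97.5) were shared. On its relative RMER19B, 7 of 23 without leucine and 7 of 18 in complete medium were shared. On B3, a short interspersed element, 16 of 76 peaks without leucine (21.1%) and 15 of 40 in complete medium (37.5%) were shared, and on B3A 9 of 41 without leucine and 7 of 27 in complete medium. L1 LINE elements carried more peaks, and 12 of 321 without leucine (3.74%, 1.95 to 6.44) and 13 of 146 in complete medium (8.90%, 4.83 to 14.7) were shared. On B4A 1 of 62 without leucine and 1 of 41 in complete medium were shared, and on RMER1A 0 of 36 without leucine and 0 of 16 in complete medium. The median rank without leucine was 315 for RMER19C, 680 for B3 and 2004 for L1 peaks, the same order as their shared shares. Other elements broke this order. RMER19B had a median rank of 751 with 30.4% shared without leucine, and ORR1A3 1129 with 30.8%. These elements were picked after their counts were seen, and copies of a young repeat share sequence, which limits how well 50 bp reads can be placed.

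**Figure D5:**
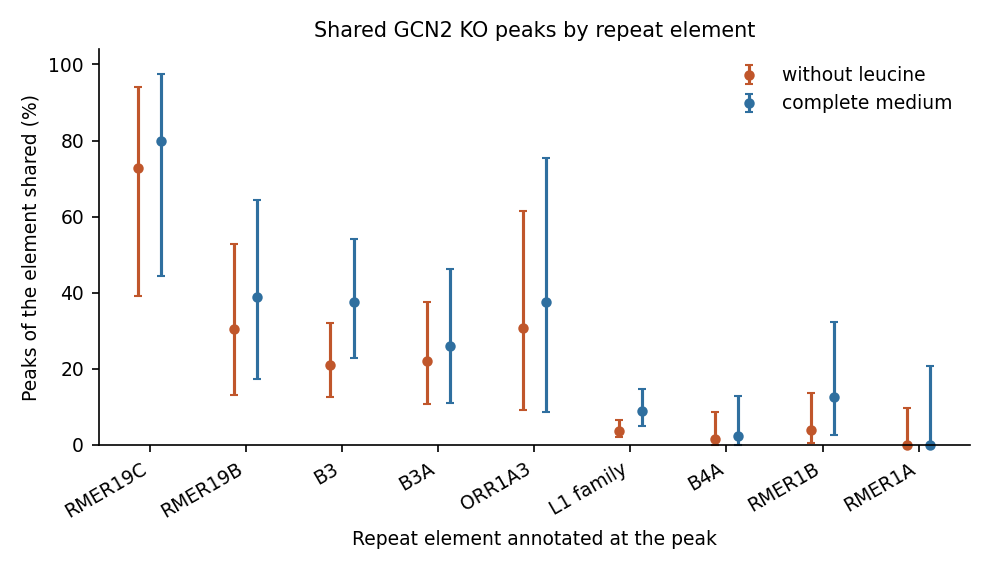
Share of GCN2 KO peaks on repeat elements picked after their counts were seen that were shared with the other KO list, in %, without leucine (orange) and in complete medium (blue). Bars are exact 95% binomial intervals that cover counting error only, with RMER19C the highest of the elements drawn at 72.7% without leucine and 80.0% in complete medium.

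The remaining gene groups had at most 5 genes each with a peak within 10 kb of a TSS in a KO list. Their shares lay on either side of those of all protein-coding genes. The counts below all use that distance, so a gene without such a peak may have one farther away. Among 48 genes that ATF4 or amino acid shortage induces, 1 carried a window within 10 kb without leucine (2.08%) and 0 in complete medium, with protein-coding genes at 4.03% without leucine and 3.03% in complete medium. That gene was Vegfa, a growth factor gene, with a window in exon 1 of 5 at rank 3090. Atf4, Asns, the asparagine synthetase gene, and Trib3, a pseudokinase gene induced through ATF4, had none. None of 38 genes of leucine sensing and mTOR signalling had a peak within 10 kb in either KO list. Autophagy and lysosome genes numbered 5 of 46 without leucine (10.9%) and 3 in complete medium (6.52%). Tfe3, a transcription factor for lysosomal genes, ranked 58 without leucine and 311 in complete medium, and Ctsd, the cathepsin D gene, 1805 without leucine and 250 in complete medium. Atg2a (907) and Atp6v1h (2004) had peaks without leucine alone.

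Proteasome subunit genes numbered 2 of 42 without leucine (4.76%) and 1 in complete medium (2.38%). That was near the shares of all protein-coding genes, 4.03% without leucine and 3.03% in complete medium. Psmd5 ranked 152 without leucine and 214 in complete medium, and Psmd7 (2004) had a peak without leucine alone. AP-1 and immediate early genes numbered 3 of 30 without leucine and 2 in complete medium. Cyr61, a matrix-associated signalling protein gene, ranked 246 without leucine and 187 in complete medium at a site found in neither WT list. Zfp36 and Fosl1 (3090), an AP-1 subunit gene, had peaks without leucine alone, and Socs3 had one in complete medium alone. Of 10 fibroblast marker genes, 0 had a peak within 10 kb without leucine and 2, Pdgfra (1975) and Thy1 (2540), had one in complete medium. Of 10 macrophage marker genes, Csf1r (3090) had a peak without leucine alone. At counts this small a difference of 1 or 2 genes between 2 libraries is no measured change.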

How the data were processed

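NRF2 binding was measured by ChIP-seq, and the 2 annotated peak lists of GCN2 KO cells, 1 library each, were analysed, with the 2 WT lists used for look-up. Reads were single and 50 bp long, per the labels' protocols. The submitters' processing notes name BWA 0.7.12, MACS2 2.1.0, HOMER 4.7 and mm10, without settings. Each library's peaks were called with an input of its own genotype kept in complete medium, per the file headers, and an input without leucine was not used here. Windows spanned 301 bases. The deposited score is a whole number of at least 13 per peak from the authors, and which column of the caller it came from is not stated in those sources. It served for ranks and filters inside each list, with tied peaks given the best rank, and its medians and bands are printed for both lists as descriptions, since its scale may differ between libraries. GC content was deposited as a fraction of the window and is printed in percent. Genes, distances and classes are the authors' nearest-TSS annotation.

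Overlaps and counts were computed with Python 3.11.15, pandas 2.3.3, NumPy 2.4.6 and SciPy 1.17.1, and the overlap code was tested on simulated windows. Intervals are exact Clopper-Pearson 95% intervals that cover counting error only. The 15 gene lists (363 genes) matched the RefSeq table of GRCm38.p6 in full. The members and lists were chosen with earlier results of these data known. Genes were named by rule: the 10 best shared, gained and missing sites within 10 kb of a TSS, and 5 gained and 5 missing beyond. Also named were 5 shared sites with the largest rank difference each way at near-equal lengths. The rule further took gene-list members with a KO peak within 10 kb, and Trib3, Asns, Atf4, Spic, Slc40a1, Nqo1, Hmox1 and Eif2ak4. Rxra, Slc7a11, Gclm, Nfe2l2, Srsf2, the shared Thy1 site, the sites outside the WT lists and the repeat elements were chosen after their values were seen. A few sites that meet the rule are not described. Motifs were searched only in RefSeq promoter windows, 1 per peak by largest overlap, since no mm10 genome was used here. Alternatives changed list length, score, overlap, TSS distance and repeat content. At near-equal length ties were kept whole, since 731 peaks tied at score 24 at the limit.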

Additional observations from a re-analysis of the deposited data

Results flagged for a closer look

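These quantities are listed because the difference between media had opposite signs in GCN2 KO and WT cells, however small it was. Each rests on 1 library per condition, and the difference between genotypes was not tested. All values are the list without leucine minus the complete-medium list. The intergenic share differed by 4.70 percentage points in KO cells and by -1.77 in WT cells. For the exon share the differences were -0.60 in KO and 1.11 in WT, for the SINE share 0.85 in KO and -0.50 in WT, and for the share of peaks within 10 kb of a TSS -2.28 in KO and 2.47 in WT. The counting intervals of the KO lists overlapped for these last shares, as for exons (4.12 to 5.37 without leucine, 4.56 to 6.16 in complete medium). They did not overlap for the intergenic share. Differences of 1 or 2 genes, as in the counts that follow, are no measured change. Among gene counts within 10 kb, the fibroblast markers differed by -2 genes in KO and 1 in WT, the regulators of NRF2 by -1 in KO and 2 in WT, and the thioredoxin and peroxide genes by -1 in KO and 1 in WT. Srxn1, Keap1, Trim16 and Bach1 were the genes behind the KO differences in the last 2 groups, with Gsk3b and Nfe2l3 counting the other way.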

How the results depend on the processing

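The size of the overlap changed with the score and list length used. In the higher-scoring 50% of each KO list, 14.3% of peaks without leucine and 22.3% in complete medium were shared, and overlap with a WT list was 10.1% for gained, 88.4% for shared and 10.5% for missing peaks. In that part of the lists gained peaks were intergenic for 52.1%, exonic for 4.03%, within 10 kb of a TSS for 20.6%, on LTR for 13.1% and on SINE elements for 9.71%, and missing peaks were intergenic for 47.2%, on LTR for 12.1%, on SINE for 9.13% and on LINE elements for 6.91%. At near-equal lengths 12.8% of the peaks without leucine were shared, 7.06% of gained and 82.1% of shared peaks overlapped a WT list, and LTR elements held 11.5% of gained peaks. Keeping the tied block, an alternative chosen after seeing the data, gave 10.8%. With centres within 100 bp, 8.48% without leucine and 12.4% in complete medium were shared. With 1 kb from the TSS, antioxidant, heme and iron genes numbered 11 without leucine, 12 in complete medium and 9 in both lists, which turns the small difference of 31 genes without leucine and 29 in complete medium. At near-equal lengths they numbered 28 without leucine and 29 in complete medium. The shares and combined gene counts moved by less than their interval, or by less than 1.5 times for counts, in the other 74 of their recalculations, among them the repeat filter and the reciprocal overlap of 50%. Among the single gene lists, 43 of 50 larger moves came from the TSS distance. Motif searches in all peaks and in their middle part were not run. No paired analysis was possible because each condition was 1 library. Depth is unknown.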

Other observations

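The X chromosome carried few peaks in every list: 35 of 4600 in KO cells without leucine (0.761%) and 12 of 3141 in KO cells in complete medium (0.382%), beside 21 of 5980 in WT cells without leucine (0.351%) and 6 of 2336 in WT cells in complete medium (0.257%). Tfe3, at rank 58 without leucine and 311 in complete medium, was one of the 4 X-linked sites shared by the KO lists. Counting peaks within 10 kb of a TSS only, several peaks near 1 gene were rare. Of the nearest genes, 48 of 1025 without leucine and 40 of 764 in complete medium had 2 or more. Pisd-ps3 had 3 such peaks without leucine and 2 in complete medium, with 2 shared. Sfi1 had 4 peaks in each KO list with 2 shared, Neat1, a nuclear long non-coding RNA gene, 2 without leucine and 3 in complete medium with 2 shared, and Klk13, a kallikrein gene, 3 without leucine and 1 in complete medium with 0 shared.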
